A study of Mus musculus with 3 samples.

Results

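The Tex genes are mouse genes that were named for expression in the testis. They were taken here as the protein-coding genes of the GENCODE vM39 annotation whose symbol is Tex followed by a number, with 1 matching gene left out. This gave 38 gene records of 21769 protein-coding genes, under 37 symbols, because the symbol Tex16 is carried by 2 records. RNA contacts of Tra2β were read from iCLIP libraries of testes of adult wild type mice, 1 group of 3 biological replicates. The mice carried no transgene or deletion named in the labels, and no input, knockout or mock library was analysed here, so each comparison was made within a library. The study's methods give a C57BL/6J background for its mice, and no age beyond adult is named for these. The iCLIP assay uses ultraviolet light to bond proteins to RNA in direct contact with them, here in cells freed from minced testes. Tra2β was then pulled down with a polyclonal antibody, and the end of each cDNA marks a contact. A crosslink below is 1 unique cDNA at 1 nucleotide of the mm39 (GRCm39) genome.

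The Tex genes are not a family by descent. The symbols were given for expression in testis, and the proteins do unrelated work in male germ cells and elsewhere. Tex14 keeps the cytoplasmic bridges between sister germ cells open, Tex11, from the X chromosome, acts in synapsis and crossing over in meiosis, and Tex15 is needed to silence transposons in the germ line. Tra2β is a splicing regulator that binds purine-rich RNA, above all in exons, and helps the splicing machinery to include them. A crosslink map shows where the protein was in contact with a transcript, and does not show whether splicing of that transcript depends on it.

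Libraries held 348033, 619571 and 488719 crosslinks in replicates 1, 2 and 3, of which 64.5%, 49.5% and 70.5% lay in the canonical transcripts of protein-coding genes, introns included. Levels are given as CPM, crosslinks per 1000000 of those in the same library. The limit that a count of 0 allows, 3 counts, was 13.4, 9.78 and 8.71 CPM in the same order. In each of the gene sets compared, replicate 2 had the lowest exonic share. Markers were read as a check of the tissue. The 7 germ cell genes Ddx4, Dazl, Sycp3, Prm1, Prm2, Tnp1 and Acrv1 all had crosslinks and summed to 2615, 968 and 2835 CPM. The 4 Sertoli cell genes Sox9, Wt1, Gata4 and Cldn11 summed to 223, 245 and 165 CPM, and the 3 Leydig cell genes Cyp17a1, Hsd3b1 and Insl3 to 143, 81.5 and 125 CPM. No list was at 0, and the part of somatic cells in the Tex counts was not tested. Since no RNA-seq of these samples was used, more RNA of a gene and more contact per RNA cannot be told apart.

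Coding sequence from the Tex exons with the highest counts is shown first. Exons were picked by count and not by density, so other exons, some of them denser, were not searched. In each of the 10 Tex exons with most crosslinks, the 30-nt stretch of coding sequence with most crosslinks over the 3 libraries was taken. The 6 windows that held 6 or more crosslinks are printed 5′ to 3′. Capitals mark purine pentamers, which are AAGAA or the pentamer AGAAG or the pentamer GAAGA. They were read on the strand of the gene and may overlap.
Tex2 exon 10 (chr11:106402835-106402864, minus strand): aaagcaacagagacagaattcattaaaaag
Tex50 exon 2 (chr1:160984739-160984768, minus strand): tgtcAAGAAagctaagcaacaacgtaaatt
Tex2 exon 6 (chr11:106424718-106424747, minus strand): tggtctgatgtggtgtcGAAGAAaatccag
Tex15 exon 1 (chr8:34065126-34065155, plus strand): ggatcacctattagttttaagtacaaaagt
Tex2 exon 2 (chr11:106457988-106458017, minus strand): taaagacgctcggcttctttataatgtgtg
Tex55 exon 1 (chr16:38648354-38648383, minus strand): aagtttcaactacagaggaaacagaaagtg

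The Tex2 exon 10 window held 4, 1 and 6 crosslinks in replicates 1, 2 and 3, and 73.3% of its bases were purines. The Tex50 window held 7, 0 and 4 crosslinks, and the Tex2 exon 6 window 3, 2 and 4. Only the latter 2 windows of the 6 held a pentamer. The windows in Tex15 exon 1, Tex2 exon 2 and Tex55 exon 1 held 6 crosslinks each. The other 4 windows, in Tex2 exons 4 and 12, Tex14 exon 14 and Tex47 exon 2, held 2 to 4 crosslinks. Of the 10 windows 3 held a pentamer, and 14.7% of all 30-nt windows of coding exons did (18.3% of those of Tex genes). The windows were chosen by their counts, so these values are a description.

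All 38 Tex records had at least 1 crosslink, against 74.9% of the other protein-coding genes. Crosslinks in all 3 libraries were found for 29 of the 38, and no share of other genes was set beside that count. Over the 3 libraries, 22 of 38 (57.9%) had 20 or more crosslinks, against 32.1% of the other genes. In the Spata and Ccdc gene sets, described below, the share was 74.4% and 60.1%. At least 1 crosslink was found in 93.0% of the Spata and 94.2% of the Ccdc genes. Expression in testis was not matched between these sets. The median Tex gene had 24 crosslinks and the median other gene 6. Together the Tex genes held 605, 660 and 945 crosslinks, which was 0.253% ± 0.0328 (SD, n = 3) of those in protein-coding transcripts. The 3 genes at the top, Tex14, Tex2 and Tex15, held 42.6% of them. Contacts were spread over many nucleotides, as in the libraries at large. There, 348033, 619571 and 488719 crosslinks lay at 335153, 587353 and 456521 positions in replicates 1, 2 and 3. The overlap of positions between libraries was counted for Tex genes alone. The Tex crosslinks lay at 2150 positions, of which 25 were seen in 2 libraries and 0 in all 3, and no position had more than 3 cDNAs in 1 library.

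Tex14, the bridge protein, ranked highest by total crosslinks, at place 327 of 21769 genes. Its exons had 24, 39 and 43 crosslinks and its introns 79, 114 and 101, a level of 459 ± 40.5 CPM (SD, n = 3). The libraries lay close together, at places 350, 259 and 430. The canonical transcript (chr11:87295793-87446649, plus strand) has 31 exons with 4861 nt in all and 145996 nt of intron, and 26.5% of the crosslinks were exonic. Its introns hold genes of small RNAs on the same strand, and the gene was also called below without those bases.

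Tex2, a lipid transfer protein of the endoplasmic reticulum, came next at place 437. Its exons had 71, 22 and 117 crosslinks and its introns 40, 47 and 49. Replicate 2 stood apart in the exons alone, and the level was 400.4 ± 152 CPM (SD, n = 3). The transcript (chr11:106392965-106503864, minus strand) has 12 exons.

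Tex15 had 43, 54 and 83 exonic and 2, 8 and 5 intronic crosslinks and ranked at place 1063, with 219 ± 31.2 CPM (SD, n = 3). Its canonical transcript (chr8:34060572-34075610, plus strand) has 4 exons, and 55.9% of it is exon. Tex29 had 13, 10 and 19 exonic crosslinks against 41, 38 and 33 in introns, and Tex9 had 10, 14 and 27 against 29, 28 and 39. Both had more intronic than exonic crosslinks in every library.

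**Figure D1:**
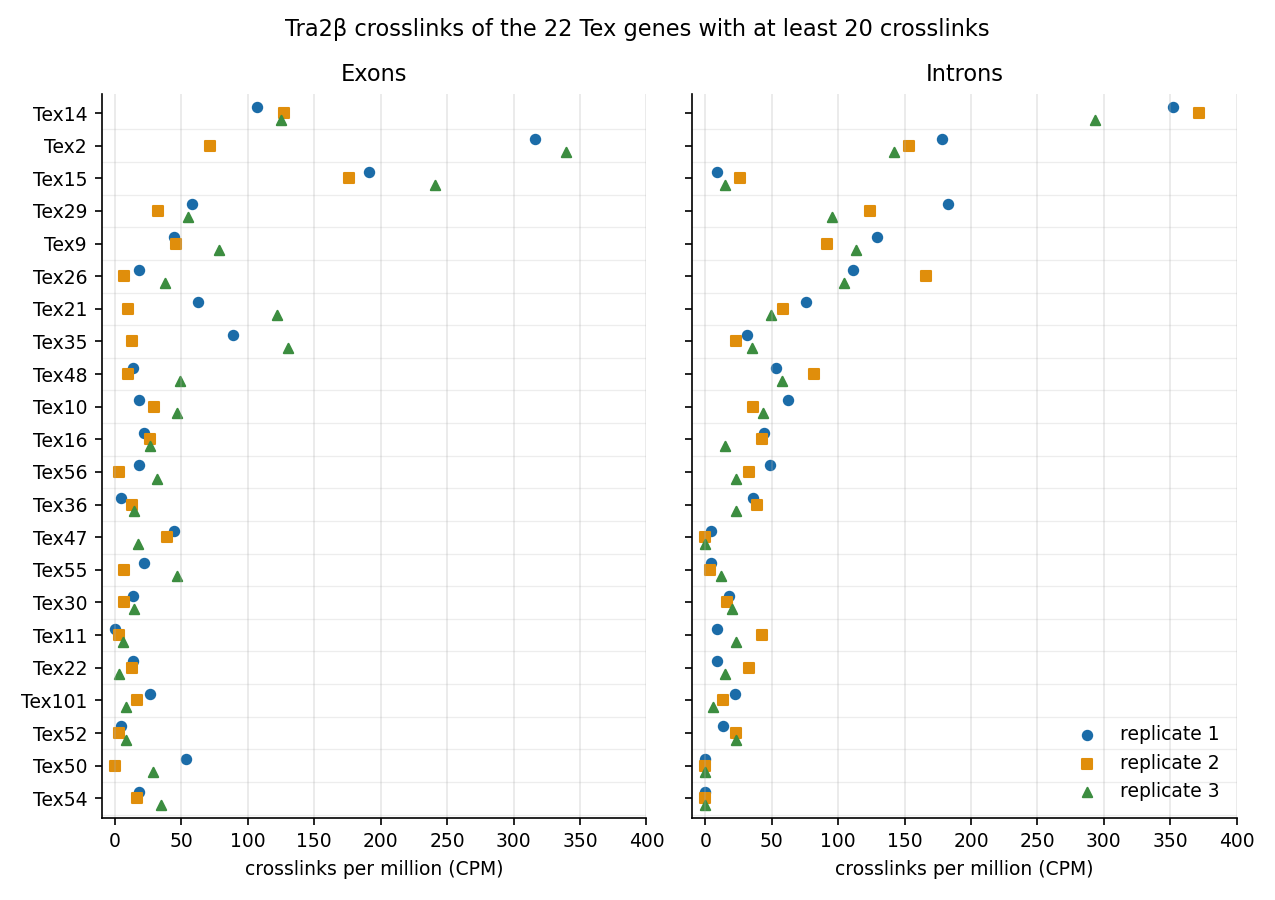
CPM in exons (left) and introns (right) of the 22 Tex genes with at least 20 crosslinks, with 1 point for each library. Tex14 is highest in introns, Tex2 is highest in exons in replicates 1 and 3, and Tex15 is nearly all exonic.

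The next 7 genes, with 45 to 131 crosslinks, differed in where their contacts lay. Tex26 was mostly intronic, with 4, 2 and 13 exonic and 25, 51 and 36 intronic crosslinks. Its introns share 1751 nt with a non-coding gene on its strand. Tex48 had 3, 3 and 17 exonic against 12, 25 and 20 intronic crosslinks. Tex35 was mostly exonic outside replicate 2, with 20, 4 and 45 exonic against 7, 7 and 12 intronic crosslinks. Tex21 had 14, 3 and 42 exonic and 17, 18 and 17 intronic crosslinks, with exons ahead by count in replicate 3 alone. Per length its exons were 17.7, 3.58 and 53.0 times as dense as its introns.

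Tex10, a subunit of a complex that matures the large ribosomal subunit, had 4, 9 and 16 exonic and 14, 11 and 15 intronic crosslinks. Tex16 had 5, 8 and 9 exonic and 10, 13 and 5 intronic crosslinks in the record that passed the filter, which lies wholly inside another protein-coding record on its strand. Tex56 had 4, 1 and 11 exonic and 11, 10 and 8 intronic crosslinks, and its introns share 987 nt with a pseudogene on its strand. The 2 Tex16 records and the X-linked Tex13 genes have close relatives, and how reads that map to several places were treated is not given in the sources used here, so their counts are uncertain.

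The remaining 10 genes of the 22 had 21 to 38 crosslinks. Tex36 had 1, 4 and 5 exonic and 8, 12 and 8 intronic crosslinks. Tex47 had 10, 12 and 6 exonic crosslinks and 1 intronic crosslink. Tex55 had 5, 2 and 16 exonic and 1, 1 and 4 intronic crosslinks.
Tex30 had 3, 2 and 5 exonic and 4, 5 and 7 intronic crosslinks, and it shares bases with a non-coding gene on its strand. Tex11, the meiotic recombination protein, had 0, 1 and 2 exonic crosslinks over 30 exons and 2, 13 and 8 intronic ones. Tex101, a glycoprotein of the germ cell surface needed for sperm migration, had 6, 5 and 3 exonic and 5, 4 and 2 intronic crosslinks. Its exonic and intronic counts overlapped between libraries.
Tex22 had 3, 4 and 1 exonic and 2, 10 and 5 intronic crosslinks. Tex52 had 1, 1 and 3 exonic and 3, 7 and 8 intronic crosslinks, and its whole span is shared with other genes on the strand. Tex50 had 12, 0 and 10 crosslinks and Tex54 had 4, 5 and 12, in each case all exonic. For Tex50 replicate 2 was at 0, which allows a level of up to 9.78 CPM.

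The 16 records below 20 crosslinks held 123 crosslinks in all, from 2 to 16 each, and 7 of them are on the X chromosome. They were Tex13a, Tex13b, Tex13c1, Tex13c3, Tex13d, Tex19.1, Tex19.2, Tex28, Tex38, Tex44, Tex46, Tex51, Tex53, Tex261, Tex264 and the second Tex16 record. Tex19.1 and Tex19.2, which guard the germ line against retrotransposons, are among them, as is Tex38, which is needed to form sperm. At this depth a pattern within these genes was not detectable. By role, the 5 genes of bridges, meiosis and transposon silencing (Tex11, Tex14, Tex15, Tex19.1 and Tex19.2) summed to 673, 757 and 714 CPM. Tex14 and Tex15 gave the larger part of that sum. The 4 genes of the endoplasmic reticulum and ribosome assembly (Tex2, Tex10, Tex261 and Tex264) summed to 593, 319.6 and 601 CPM, of which Tex2 gave the larger part. The 5 X-linked Tex13 genes summed to 66.8, 19.6 and 75.5 CPM, and Tex101 and Tex38 together to 49.0, 32.6 and 17.4 CPM.

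Per length, the order changed. Scaled to exon length, Tex35 was highest of the Tex genes, at place 180 of 21769, with 84.6 ± 65.01 exonic CPM per kb of exon (SD, n = 3). Tex29 followed at place 315 with 59.0 ± 16.9, Tex54 at place 325 with 57.7 ± 25.8 and Tex2 at place 426 with 48.0 ± 29.4. These neighbours differed by less than the spread between libraries. Tex14 was at place 1026 on that scale and Tex15 at place 1056, although they stood at places 327 and 1063 by total crosslinks.

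The next question was whether Tra2β contacts were denser in exons than in introns of the same gene. For each gene with an intron and 20 or more crosslinks, the exonic count was compared with the share of the transcript's length that is exon, by a two-sided exact binomial test in each library, adjusted over all genes tested by the Benjamini-Hochberg method. Calls required an adjusted p below 0.05, with 1 direction, in each of the 3 libraries. Of the 22 Tex genes tested 6 were called, all with denser exons (27.3%), namely Tex14, Tex2, Tex15, Tex29, Tex9 and Tex16. Of the other 6885 genes, 32.4% were called with denser exons and 0.0145% with denser introns. The Tex share was thus near the background. No Tex gene was called with denser introns.

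Calls followed depth. Of 7 Tex genes with 100 to 499 crosslinks 5 were called, against 61.5% of other genes at that depth. Of 4 with 50 to 99 crosslinks 1 was called, against 31.6%, and of 11 with 20 to 49 crosslinks 0, against 9.51%. All 22 had a higher exonic than intronic density with the libraries summed, as did 94.5% of the other genes. Single libraries put 12, 7 and 17 Tex genes past the threshold in replicates 1, 2 and 3, against 52.1%, 45.8% and 66.5% of other genes. Without replicate 2 the number called was 11, the additions being Tex21, Tex35, Tex50, Tex55 and Tex56, and without replicate 1 Tex10 was added to the 6.

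Tex2 had the highest ratio of mean exonic to mean intronic density of the 6 called genes, at 32.2. Its exonic density was 37.2, 9.81 and 50.05 times the intronic one in replicates 1, 2 and 3, and the largest adjusted p of the 3 exact tests was 6.45e-12. Tex14 exons were 9.12, 10.3 and 12.8 times denser than its introns (largest adjusted p = 4.43e-13, exact binomial). The folds of Tex14 differed little between libraries, while those of Tex2 were lowest in replicate 2. Tex15 exons were 17.0, 5.33 and 13.1 times denser (1.77e-06, same test and adjustment). Tex9 exons were 6.37, 9.24 and 12.8 times denser (0.000143) and Tex29 exons 5.57, 4.63 and 10.1 times (0.00144). For Tex16 the folds were 11.5, 14.1 and 41.4 (0.00151), and it could not be tested without the bases that it shares with another gene. Tex35 and Tex21 missed the call through replicate 2, with adjusted p of 0.0679 and 0.217 there in the exact test. Their folds in that library were 5.36 and 3.58.

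**Figure D2:**
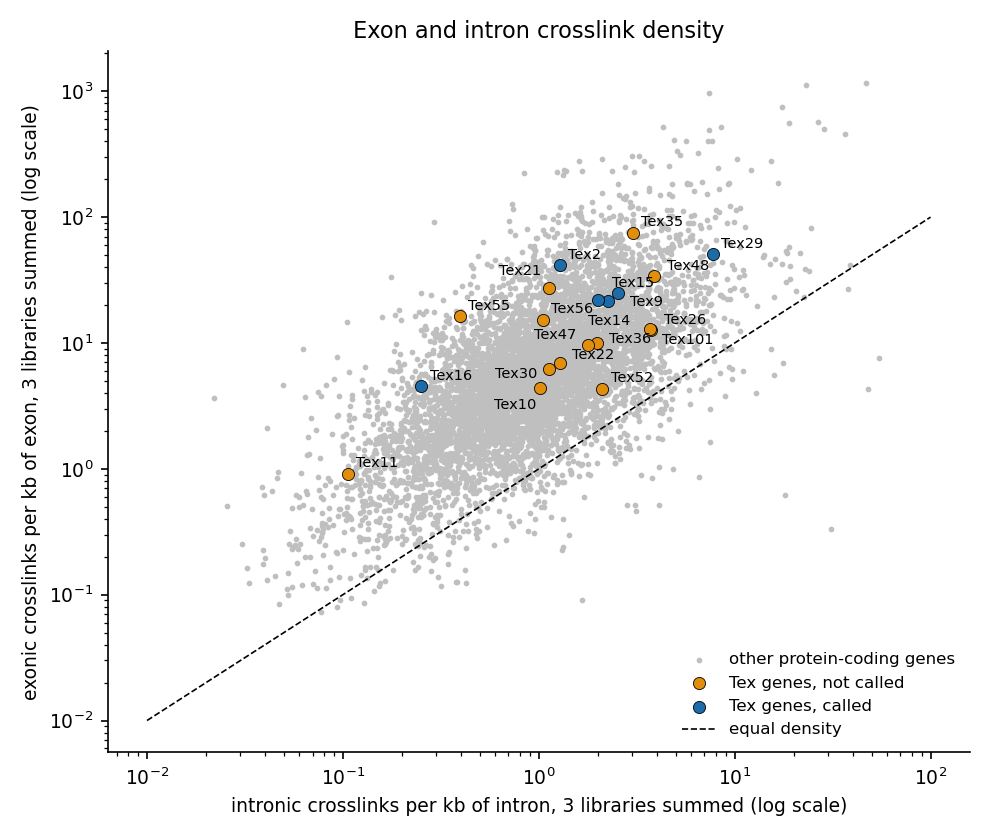
Exonic against intronic crosslinks per kb, with the 3 libraries summed, for each tested gene with a count in both (both axes on a log scale). The 20 Tex genes shown lie above the line of equal density and within the cloud of the other protein-coding genes.

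The median ratio of mean exonic to mean intronic density was 8.13 over the 20 tested Tex genes with a count in both, and 5.70 over 6707 other genes. Pooled over all Tex genes, the exonic share of crosslinks was 46.6% (95% Clopper-Pearson interval 42.6 to 50.7), 34.4% (30.8 to 38.2) and 58.1% (54.9 to 61.3) in replicates 1, 2 and 3, where exons are 7.74% of the length. The other protein-coding genes had 43.1%, 26.8% and 55.7%, with exons at 7.83% of the length. The Tex share was higher by 4.49 percentage points ± 2.695 (SD, n = 3), in the same direction in 3 of 3 libraries. An exact sign-flip test with n = 3 gives at best p = 0.25, so none was run. Without Tex15 the Tex shares were 42.7%, 28.9% and 54.4%, above those of the other genes in replicate 2 alone.

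Gene sets named by the same kind of rule were set beside the Tex genes. The 43 Spata genes, named for spermatogenesis, had exonic shares of 60.6%, 31.1% and 73.5%, and the 138 Ccdc genes, named for coiled-coil domains, 55.6%, 35.9% and 69.6%. Exons are 11.2% of the length of the Spata genes and 7.62% of that of the Ccdc genes, against 7.74% for the Tex genes. In replicates 1 and 3 both families lay above the Tex genes with no overlap of the intervals, and in replicate 2 the intervals of Tex and the other 2 families overlapped. The intervals cover counting error of the pooled cDNAs and not the spread between genes. A difference between the sets was not tested. The median ratio of exonic to intronic density was 9.60 in the Spata and 12.2 in the Ccdc genes, against 8.13 in the Tex genes. Of 32 Spata genes tested 56.2% were called with denser exons, and of 79 Ccdc genes 58.2%. The median Spata gene had 76 crosslinks and the median Ccdc gene 46, against 24 for the Tex genes, and depth moves with the share called as shown above.

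**Figure D3:**
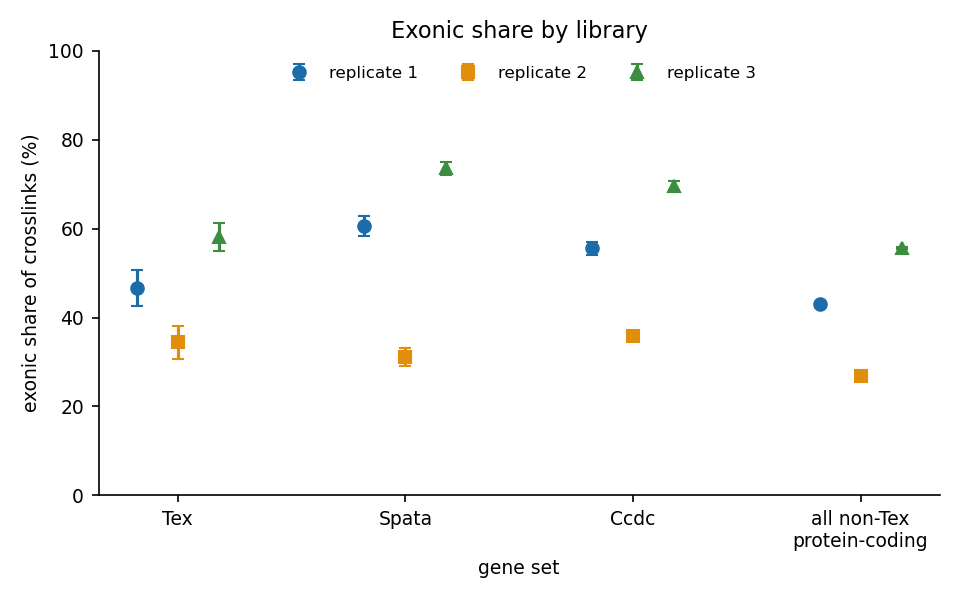
Exonic share of crosslinks in percent for the Tex, Spata and Ccdc genes and for all protein-coding genes other than Tex, 1 point for each library with its 95% Clopper-Pearson interval. Replicate 2 is lowest in each set, and the Tex genes lie below the Spata and Ccdc genes in replicates 1 and 3.

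Most exonic contacts of Tex genes lay in coding sequence. The coding share of exonic crosslinks was 84.4%, 83.7% and 85.8% (mean 84.6% ± 1.07, SD, n = 3), where coding sequence is 68.3% of exonic length. In the other genes it was 78.4% ± 2.84 (SD, n = 3) against 47.0% of the length. All 14 Tex genes with 20 or more exonic crosslinks had a coding share above the length share, as did 90.4% of 3658 other genes. Last exons, which hold most of the 3′ untranslated sequence, had 16.5% ± 3.04 (SD, n = 3) of exonic crosslinks in the Tex genes with introns, at 35.7% of the length. The share was below that of length in 12 of 14 Tex genes and in 81.5% of other genes. These shares were compared after the first values had been seen, and carry no test.

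The last exon of Tex9, exon 12, is 818 nt long with 393 nt of coding sequence and had 0 crosslinks in all 3 libraries. Exons 10 and 11, of 135 nt each, had 4, 2 and 7 and 1, 3 and 8 crosslinks. The last exon of Tex10, at 3652 nt, is 55.4% of the exonic length and had 0, 0 and 3 of the 4, 9 and 16 exonic crosslinks. In Tex2 the 1580-nt last exon had 14, 1 and 21 crosslinks, 17.1% of the total in 31.3% of the length.

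**Figure D4:**
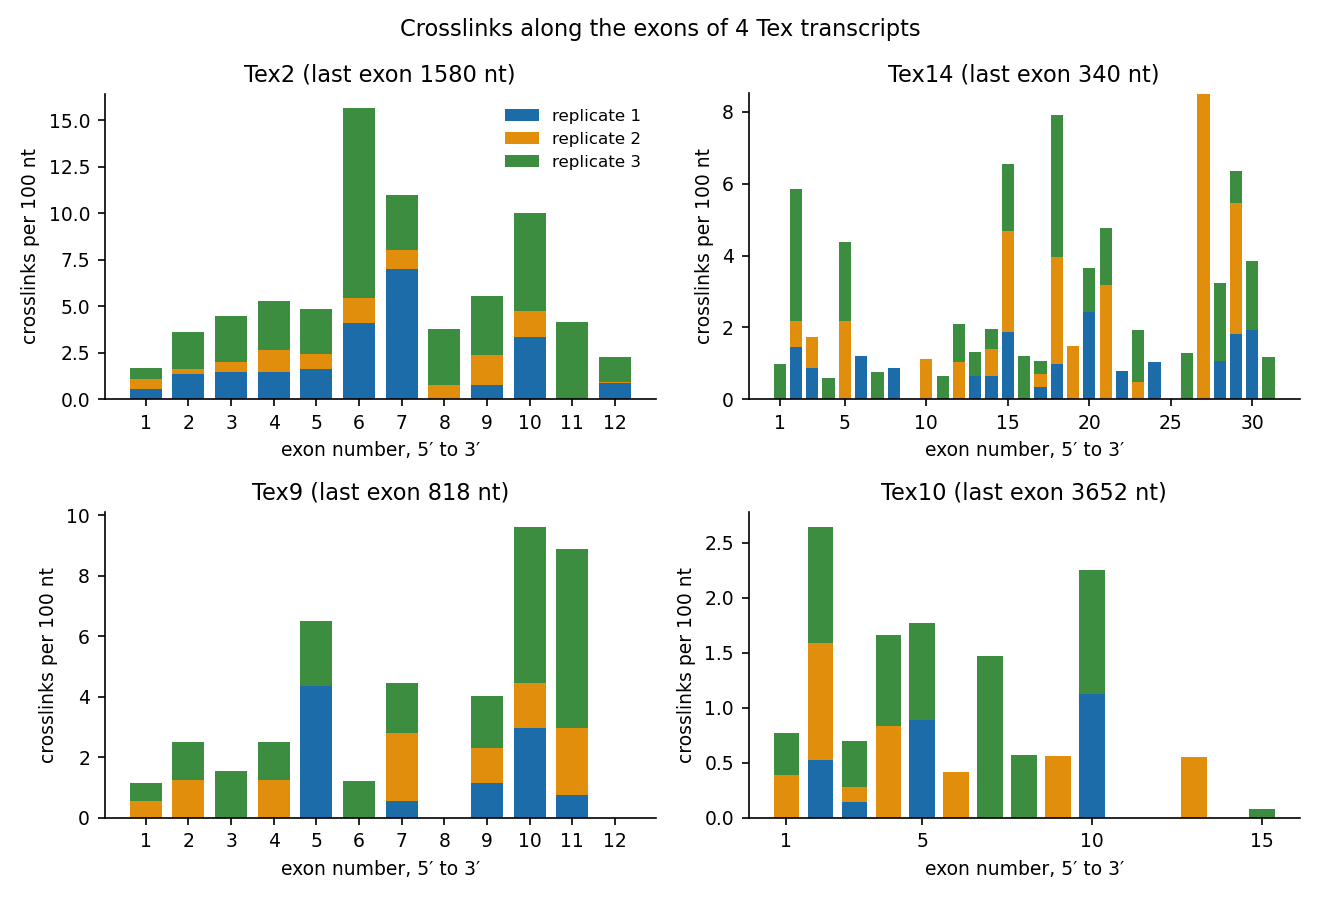
Crosslinks per 100 nt in each exon of the canonical transcripts of Tex2, Tex14, Tex9 and Tex10, numbered 5′ to 3′, with the 3 libraries stacked. Tex2 peaks at exon 6, the tallest Tex14 bar (exon 27) comes from replicate 2 alone, and the last exons of Tex9 and Tex10 are at or near 0.

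Single exons were then compared with the rest of their transcript by the same exact test, in the 14 Tex genes with 20 or more exonic crosslinks. Of 123 Tex exons tested 0 were called above and 0 below the rest in all 3 libraries. Among exons of other genes 0.164% were called above and 0.306% below. The 123 exons include 8 of at least 1000 nt, a class in which 0.512% of other genes' exons were called above and 5.19% below. They also include 6 with 20 or more crosslinks, for which the shares were 3.28% and 3.92%. At an unadjusted p under 0.05 in all 3 libraries, the exact binomial test gave 0 Tex exons above and 2 below, Tex2 exon 12 and Tex9 exon 12. In at least 1 library 3 Tex exons were above at the adjusted threshold, Tex2 exon 6, Tex9 exon 11 and Tex14 exon 27, against 3.56% of other exons. A further 3 were below, the 2 last exons just named and the last exon of Tex35, against 2.05%.

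Tex2 exon 6 (147 nt, all coding, chr11:106424697-106424843) held the second of the pentamer windows printed above. It had 6, 2 and 15 crosslinks, a density 4.10 times that of the other exons with the libraries summed, and adjusted p of 0.704, 1.0 and 0.000236 in the exact test. Its 6 pentamer starts are 4.08 per 100 nt, against 1.01 over all Tex exons. Exons 10 and 7 of Tex2 had 7, 3 and 11 and 7, 1 and 3 crosslinks, at 2.56 and 2.74 times the density of the others. Exon 10 held 6 pentamer starts and exon 7 held 0. The long second exon of Tex2, at 1663 nt, had 23, 4 and 33 crosslinks and a density of 0.815 times the others. Every one of the 12 exons of Tex2 had crosslinks, 10 of them in all 3 libraries.

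In Tex14, 29 of 31 exons had crosslinks and 6 had them in all 3 libraries. The highest count was in exon 14 (920 nt), with 6, 7 and 5 crosslinks, which at 0.876 times the density of the others did not stand out. Exon 27, at 94 nt, had 0, 8 and 0 crosslinks, so its density rests on replicate 2 alone. Exon 2 of Tex29, at 95 nt, had 2, 5 and 6 crosslinks and was 3.44 times as dense as the other exons (adjusted p of 1.0, 0.163 and 0.408, exact binomial). Tex35 had crosslinks in all 9 exons, most densely in exon 4 (57 nt), with 4, 0 and 7. Exon 1 of Tex55, at 933 nt, had 3, 2 and 13 crosslinks and exon 2 of Tex50, at 502 nt, had 10, 0 and 7.

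Tex15 differs in build from these. Its first exon, chr8:34060572-34067606, is 7035 nt long and wholly coding in the canonical transcript. That transcript model starts within coding sequence, and anything of the gene upstream of it is left out of these counts. The exon had 37, 50 and 73 crosslinks. That is 88.9% of the exonic crosslinks in 83.7% of the exonic length, and the smallest adjusted p of the 3 exact tests was 0.949. Contacts ran along the whole exon. The 28 stretches of 250 nt had 2 to 10 crosslinks each with a median of 6, none was at 0, and 16 had crosslinks in all 3 libraries. Exon 3, at 1235 nt, had 6, 3 and 7 crosslinks.

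**Figure D5:**
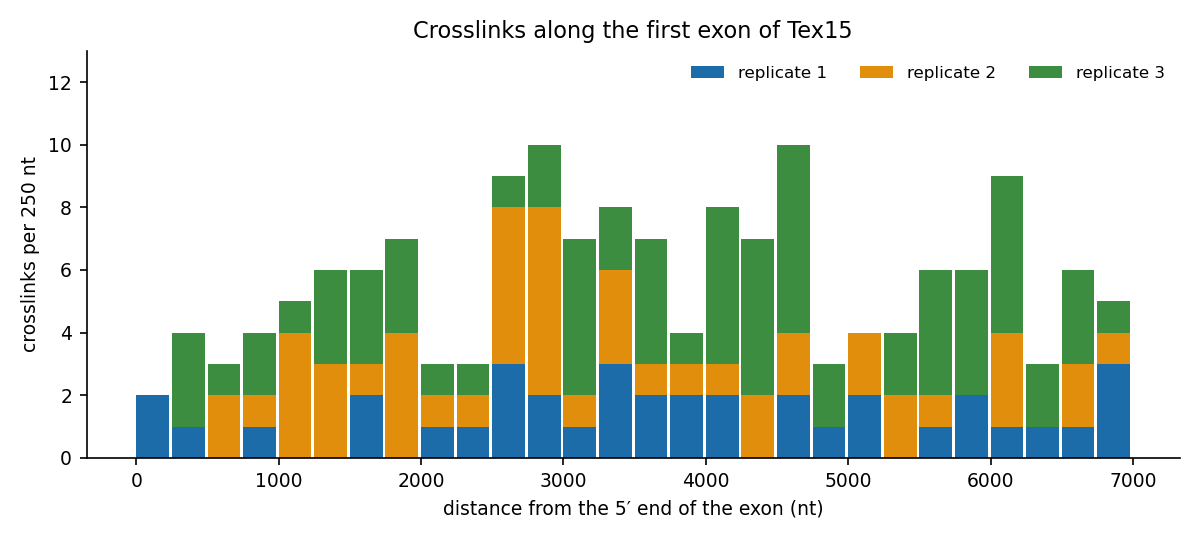
Crosslinks in consecutive 250-nt stretches of the first exon of Tex15, from its 5′ end, with the 3 libraries stacked. Counts run from 2 to 10 per stretch, with no stretch at 0.

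Long exons were few among the Tex genes. An exon of 1000 nt or more was present in 12 of 38 Tex genes (31.6%), against 65.1% of the other genes, and the median longest exon was 719.5 nt against 1506 nt. The 15 such Tex exons made up 43.3% of the exonic length and held 37.6%, 37.9% and 31.9% of exonic crosslinks (mean 35.8% ± 3.39, SD, n = 3). In the other genes the share was 32.1% ± 1.46 (SD, n = 3) in 56.3% of the length. The Tex share rests on Tex15, since without it the share was 21.9% ± 3.88 (SD, n = 3) in 36.7% of the length. Of the single-exon genes, Tex44 had 1, 5 and 8 crosslinks in 1724 nt and Tex13d 5, 1 and 5 in 1834 nt. Tex47 had all its exonic crosslinks, 10, 12 and 6, in its 2818-nt second exon, and Tex13c1 had 3, 0 and 9 of its 13 in its 1864-nt first exon. The long exon 4 of Tex13b, at 1401 nt, had 0 in all libraries.

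Introns held 323, 433 and 396 of the Tex crosslinks. Each intron was compared with the other introns of its transcript in the same way, a test added after the values had been seen. Of 142 Tex introns in 13 genes 1 was called above the others, and 0 below, while 0.312% of introns of other genes were called above and 0.153% below. With 1 call, the Tex share cannot be told from that background. The called intron was the second of Tex29 (chr8:11890977-11894151, 3175 nt), which had 25, 21 and 25 of the 41, 38 and 33 intronic crosslinks. Its density was 5.56, 4.39 and 11.1 times that of the other introns (largest adjusted p = 0.00115, exact binomial). It follows the densest exon of the gene, exon 2. The densest 200 nt of it held 7, 1 and 5 crosslinks, so the contacts were not a single pile.

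Intron 2 of Tex14, the longest of that gene at 40458 nt, had 31, 49 and 45 crosslinks, 42.5% of the intronic total in 27.7% of the length. Its adjusted p was 0.886, 0.0268 and 0.0307 in the exact test, so it was called only when replicate 1 was left out. The first intron of Tex48 had 12, 24 and 16 of 12, 25 and 20 intronic crosslinks, and the sixth intron of Tex26 had 10, 20 and 8 of 25, 51 and 36. Neither was called.

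Purine pentamers were counted around exonic crosslinks because Tra2β is known for binding such sequence. A position was scored when 1 of these pentamers started within 30 nt on either side, and the share was set against that at all positions of the same exons. In Tex exons 39.6%, 52.7% and 45.6% of crosslink positions had a pentamer near, against 37.6%, 43.6% and 41.3% of all positions. The ratios were 1.05, 1.21 and 1.103, a mean of 1.12 ± 0.0794 (SD, n = 3). Other genes had 1.14, 1.29 and 1.11, a mean of 1.18 ± 0.0947 (SD, n = 3), and the means differed by less than the spread between libraries. Within 10 nt the ratios were 1.28 ± 0.201 and 1.29 ± 0.160 (SD, n = 3).

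Tex exons held 1.01 pentamer starts per 100 nt, against 0.747 in other exons, and 52.1% purines against 50.4%. By gene, with libraries summed, the ratio was 1.11 in Tex2, 1.01 in Tex15, 1.16 in Tex14 and 1.22 in Tex21. In Tex55 and Tex54 it was 0.555 and 0.402, from 5 of 23 and 2 of 20 positions with a pentamer near. In Tex10 and Tex50 it was 1.59 and 2.25, from 13 of 29 and 13 of 21. Single genes rest on few positions, and these ratios carry no test.

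Known partners of Tex proteins were read the same way from a list of 21 genes, of which 20 were found by symbol. Of these, 19 had crosslinks, 13 were tested, 7 were called with denser exons and 0 with denser introns, against 32.4% of other genes with denser exons. That background covers all depths, and calls moved with depth as shown above. Called partners Sycp2, Adam3, Pelp1, Piwil2 and Rbm44 had 693, 392, 194, 138 and 114 crosslinks. Kif23 and Shoc1, also called, had 53 and 47, and the tested partners not called had 20 to 44. At 100 to 499 crosslinks 61.5% of other genes were called. The list was not compared at matched depth. Of the partners of Tex14, Rbm44, a bridge component, had 19, 10 and 43 exonic and 10, 19 and 13 intronic crosslinks and was called, as was the midbody motor Kif23 with 11, 6 and 24 against 2, 2 and 8. Cep55, which Tex14 blocks at the bridge, had 4, 9 and 9 against 3, 3 and 6 and was not called. Sycp2, an axial element protein of meiotic chromosomes, was the most crosslinked, with 108, 95 and 252 exonic and 59, 65 and 114 intronic crosslinks, and was called.
Shoc1, Piwil2, Adam3 and Pelp1 were the other 4 called. Pelp1, which works with Tex10 in ribosome assembly, had 49, 17 and 109 exonic against 5, 8 and 6 intronic crosslinks. Of the genes of transposon silencing beside Tex15, Piwil4, Spocd1 and Dnmt3l had 2 to 5 crosslinks and Dnmt3c had 0.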

How the data were processed

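Tra2β iCLIP had been done on adult wild type mouse testes in 3 biological replicates, the unit of replication here. The authors processed the reads with the iMAPS pipeline, and the deposited values are whole-number counts of unique cDNAs for each crosslinked nucleotide and strand on mm39. The submitters' processing notes name Trim Galore 0.6.7, Bowtie 1.3.1, STAR 2.7.9a and UMI-tools 1.1.2, with no parameters. Counts were not normalised, and nucleotides without a cDNA are not listed. How reads mapping to several places were treated is not given in the sources used here.

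Crosslinks were counted by strand in exons and introns of the Ensembl canonical transcript (GENCODE vM39), with Python 3.11.15, numpy 2.4.6, pandas 2.3.3 and scipy 1.17.1. CPM is crosslinks per 1000000 of those in canonical protein-coding transcripts, 224453, 306669 and 344575 in replicates 1, 2 and 3. Exact binomial tests were run in each library on features of genes with 20 or more crosslinks over the 3 libraries and adjusted by the Benjamini-Hochberg method over all features tested there. They treat cDNAs as independent, and their intervals and limits cover counting error only. The scripts were tested on simulated counts. With 1 group no comparison of conditions was possible.

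All Tex genes with 20 or more crosslinks were named with values, as were the 10 Tex exons with most crosslinks. Other exons and introns were named after their values were seen. Members, lists, tests and windows were chosen with earlier results of these data known. A gene matching the name pattern is not reported here. Alternatives were distinct positions in place of cDNAs, each library left out, exons of all transcripts, shared bases left out, other minimum counts, other exon length thresholds and window sizes, and internal exons alone. The intron test and values without Tex15 were added after seeing the data.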

Additional observations from a re-analysis of the deposited data

How the results depend on the processing

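Tex genes had 605, 660 and 945 crosslinks in replicates 1, 2 and 3, and calls needed all 3 libraries, of which replicate 2 had the lowest exonic share. The 6 Tex genes called with denser exons were called under every alternative that could test them, except that Tex16 could not be tested without shared bases, which left 5. With 1 library left out the count ran from 6 to 11, the 11 without replicate 2. The background of other genes ran from 33.8% to 47.7% with 1 library left out, was 50.9% at a minimum of 50 crosslinks and 23.3% at 10. The Tex exonic share moved by less than the spread between libraries in each alternative (40.5% to 52.4%). No Tex exon was called under any alternative. Its background ran from 0.203% to 0.474% with 1 library left out, and was 0.0288% with internal exons alone, 0.392% at a minimum of 50 and 0.109% at 10. The share in long exons was 46.3% at 500 nt, 21.4% at 2000 nt and 21.9% without Tex15, and ran from 34.7% to 37.7% with 1 library left out. The best Tex rank ran from 281 to 325 with 1 library left out (Tex14 or Tex2), and was 180 (Tex35) by exonic crosslinks per kb. The pentamer ratio was 1.28 within 10 nt and ran from 1.08 to 1.16 with 1 library left out. Tex introns called ran from 1 to 2 with 1 library left out (the addition is Tex14 intron 2), with a background of 0.440% to 0.545%, and 0.592% at a minimum of 50. The causes were not tested beyond what a setting itself changes. No paired analysis was possible because the libraries form 1 group.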
